A study of Mus musculus with 34 samples.

Results

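The 7 genes described here encode the ligands Nodal and Gdf3, the coreceptor Tdgf1 (also called Cripto), the secreted antagonists Lefty1, Lefty2 and Cer1, and the transcription factor Foxh1. They were taken by symbol as a short list of Nodal pathway and left-right genes, 7 of the 52636 genes in the deposited expression table. All 7 genes passed the filter of 1 scaled RPKM in at least 3 libraries, and 14196 genes were tested in all. RPKM counts reads relative to gene length and library size, so levels of different genes can be compared, and scaled RPKM is RPKM divided by a size factor for each library.

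RNA was sequenced from mouse embryonic stem cells (ESCs) of the F1(G4) line, strain 129S2/C57Bl6J, that were either mutant for Hdn or wild type. Hdn, or Handsdown, is a locus of a long non-coding RNA. The mutant groups were undifferentiated ESCs and cells on days 3, 4, 5 and 6 of differentiation, and the wild-type groups were taken at the same 5 stages. Each of the 10 groups held 3 libraries. Cells of every group had been kept in 2i medium. The differentiating cells of both genotypes first formed hanging-drop aggregates, which were then placed on fibronectin and given BMP4 at 20 ng/mL without serum. The labels do not give the sequence change in the mutant, the number of mutant clones, or whether replicates are separate cultures, so p-values measure the spread between these libraries, which may be technical. A difference between the cell lines used and an effect of the mutation cannot be told apart. The labels also conflict. The series' design text names Brachyury mutants where the sample labels name Hdn, and one protocol field of these libraries describes dissected hearts where titles and treatment describe ESC cultures.

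Nodal is a secreted ligand of the TGF-beta superfamily. It signals through activin receptors together with a coreceptor of the EGF-CFC family, the receptors phosphorylate Smad proteins, and these act with Foxh1 on target genes that include Nodal itself and its inhibitors Lefty1 and Lefty2. In the mouse embryo the pathway patterns the epiblast and the primitive streak, and it later marks the left side, where Nodal and Lefty2 are switched on in lateral plate mesoderm. Mouse ESCs also express several of its genes.

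Read totals derived from the RPKM values lay between 43.3 M and 68.4 M per library, with a median of 57.2 M. The targeted gene was listed as 5033428I22Rik. It had 0 reads in all mutant libraries through day 4, 0, 0 and 1 on day 5 and 0, 8 and 3 on day 6, against 0 reads in the wild-type ESCs, 0 to 9 on days 3 and 4, 19, 24 and 29 on day 5, and 60, 37 and 240 on day 6. A count of 0 allows up to 3 reads, and such limits cover counting error only. The ESC libraries therefore could not be checked against their labels in this way. Some libraries stood apart. A summed level of 6 mature heart and blood genes reached 61.4 scaled RPKM in mutant day 4 replicate 3 and 83.7 in mutant day 5 replicate 3, against at most 2.02 in the other mutant libraries of those days. It lay between 191 and 543 in all mutant libraries of day 6, and was 25.6 in wild-type day 6 replicate 3. The fits below without the libraries with mature heart transcripts leave out only the 2 mutant libraries of days 4 and 5. Mutant day 4 replicate 3 also had the lowest correlation with a fellow replicate, 0.9525 across genes. Wild-type replicate 1 had the highest summed level of Pou5f1, Sox2 and Nanog among its group on each of days 3 to 6. The Y-linked gene Eif2s3y averaged 12.1 scaled RPKM in mutant ESCs and 6.54 to 7.41 in the later mutant groups, against 0.368 in wild-type ESCs and 3.71 to 4.39 in the later wild-type groups. Wild-type ESCs thus differed from mutant ESCs and from the later wild-type cultures in a chromosome-linked marker. Whether this bears on the comparisons that use wild-type ESCs was not tested. These are mutant against wild-type ESCs, day 3 against ESC, and the tests of how the mutant difference depends on stage.

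For 3 of the 7 genes, Nodal, Tdgf1 and Cer1, a promoter window of 250 bases before to 50 after the gene start was at hand in RefSeq (GRCm38.p6). They are shown because Nodal and Tdgf1 moved together over the stages while Cer1 took another course. The Nodal window is chr10:61417722-61418021 on the plus strand, the Tdgf1 window chr9:110946109-110946408 on the minus strand and the Cer1 window chr4:82885102-82885401 on the minus strand. Each is written from 5′ to 3′ on the gene's strand, with the letters CAGAC (the core bound by Smad proteins) and TAATTA (a homeodomain core) in capitals.
Nodal: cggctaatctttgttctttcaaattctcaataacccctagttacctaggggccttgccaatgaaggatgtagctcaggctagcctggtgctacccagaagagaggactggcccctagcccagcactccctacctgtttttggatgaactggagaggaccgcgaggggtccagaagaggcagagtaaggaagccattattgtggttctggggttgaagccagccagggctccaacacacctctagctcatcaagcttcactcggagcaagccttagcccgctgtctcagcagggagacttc
Tdgf1: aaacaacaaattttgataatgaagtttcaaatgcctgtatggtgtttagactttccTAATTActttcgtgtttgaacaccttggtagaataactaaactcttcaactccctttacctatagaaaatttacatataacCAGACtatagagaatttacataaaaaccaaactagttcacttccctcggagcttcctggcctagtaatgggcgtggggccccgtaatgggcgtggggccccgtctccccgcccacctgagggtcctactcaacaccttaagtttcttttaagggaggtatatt
Cer1: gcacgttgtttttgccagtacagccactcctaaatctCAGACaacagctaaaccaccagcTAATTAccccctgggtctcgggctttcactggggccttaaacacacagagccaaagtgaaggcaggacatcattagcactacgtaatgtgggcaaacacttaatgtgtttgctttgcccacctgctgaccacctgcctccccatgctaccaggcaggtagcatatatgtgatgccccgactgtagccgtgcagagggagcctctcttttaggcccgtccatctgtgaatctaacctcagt
The search covered both strands for AATCCACA and AATACACA, which Foxh1 is known to bind, GTCTAGAC and CAGAC, which Smad proteins are known to bind, TAATTA and the TATA-box letters TATAAA. The Tdgf1 and Cer1 windows each held 1 CAGAC and 1 TAATTA. The Nodal window held none of the 6 motifs. Of 32851 RefSeq promoter windows of the same length, 49.6% held CAGAC and 5.29% held TAATTA. The shares were 0.855% for AATCCACA, 0.98% for AATACACA, 0.213% for GTCTAGAC and 13.6% for TATAAA. The TAATTA began 194 bases before the gene start in the Tdgf1 window and 190 bases before it in the Cer1 window, counted in the printed direction.

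Between mutant and wild-type cells, the ligand Gdf3 and the inhibitor Lefty1 differed most often among the 7 genes, Nodal, Lefty2 and Foxh1 were called at no stage, and Cer1 was the only one called higher. A gene is called here at a Benjamini-Hochberg adjusted p under 0.05 in limma over the 14196 genes that comes with a log2 difference reaching 1 either way, and verbs such as rose or fell are kept for called genes. In ESCs 0 of the 7 genes were called higher and 1, Lefty1, was called lower, where 8.55% and 3.13% of all tested genes were. On day 3 the counts were 0 higher and 1 lower (Gdf3), with 0.873% and 2.48% of all genes. On day 4 they were 1 higher (Cer1) and 2 lower (Gdf3 and Lefty1), with 2.37% and 2.81% of all genes. Day 5 gave 0 higher and 2 lower (Gdf3 and Tdgf1), with 2.42% and 3.59%, and day 6 gave 0 higher and 1 lower (Gdf3), with 3.66% and 4.12%. The median log2 difference of the 7 genes was -0.42, 0.13, -0.24, -0.18 and -0.46 from ESC to day 6, beside -0.10, -0.01, 0, 0 and 0.01 for all tested genes. In these bulk samples, fewer cells that express a gene and less of its RNA per cell cannot be told apart.

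**Figure D1:**
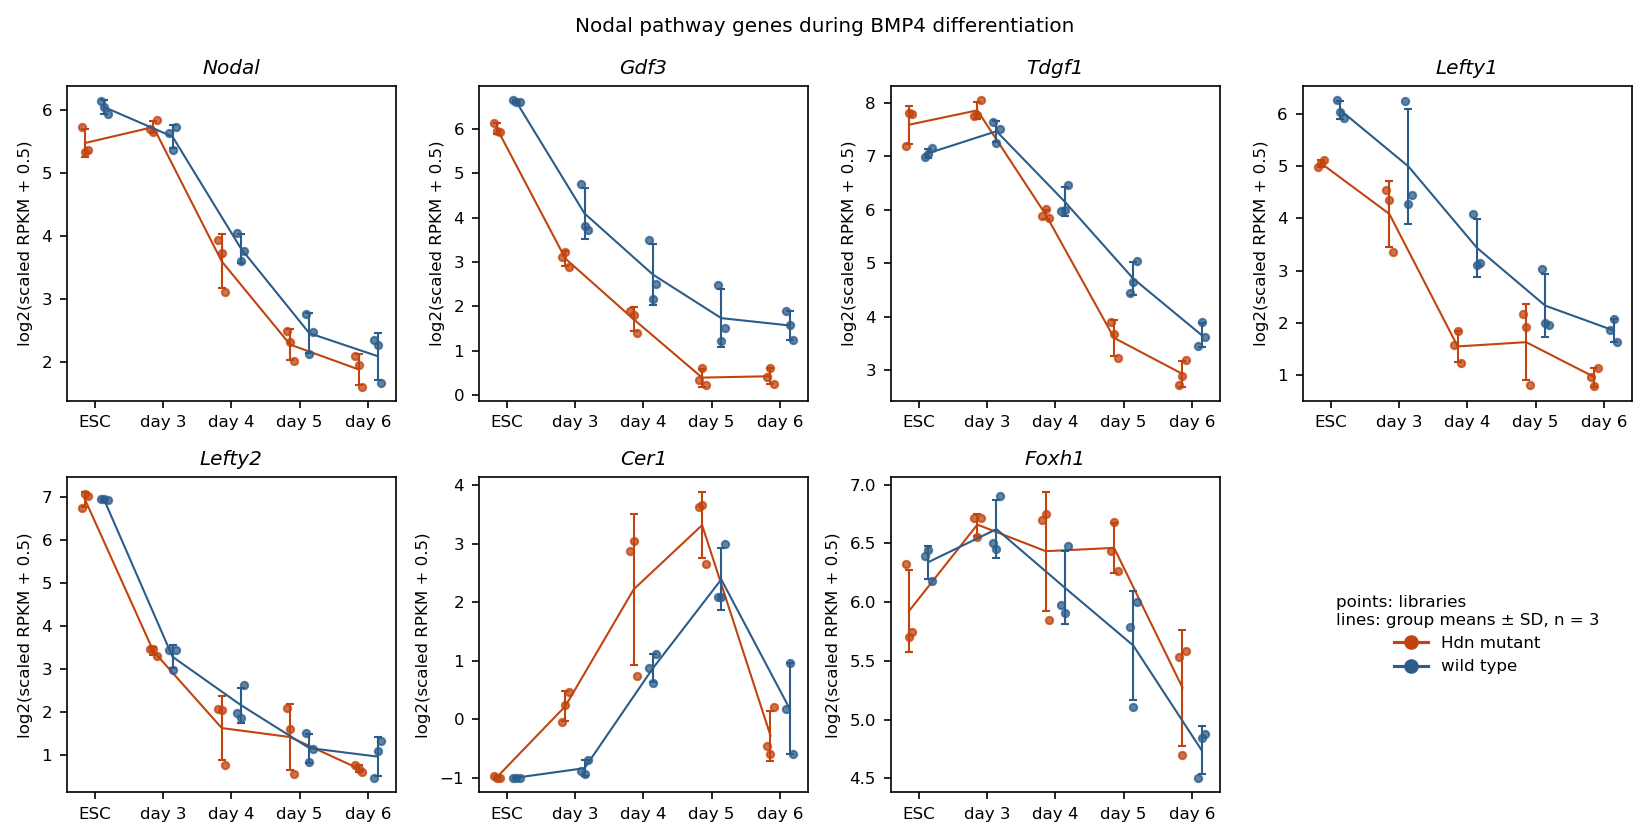
Level of each of the 7 genes as log2(scaled RPKM + 0.5) at the 5 stages; points are the 3 libraries of a group, lines join group means and bars are SD, with the Hdn mutant left of the wild type at each stage. Nodal, Gdf3, Tdgf1, Lefty1 and Lefty2 run downwards from day 3, and Cer1 peaks on day 5. Foxh1 stays high until day 5 in the mutant, while its wild-type mean goes from 99.0 scaled RPKM on day 3 to 50.8 on day 5.

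Nodal, the ligand that gives the pathway its name (ENSMUSG00000037171, GRCm38 chr10:61417972-61425338), ran a similar course in both genotypes from day 3 on. In ESCs it was at 52.7, 39.7 and 40.6 scaled RPKM in the mutant libraries, against 70.4, 65.9 and 60.6 in wild type. All 3 mutant ESC libraries lay below the wild-type ones, as for 30.6% of all genes. The log2 difference was -0.57 (SE 0.21, limma adjusted p = 0.029), short of the size needed for a call. On day 3 Nodal stood at 51.1, 49.8 and 56.8 in mutant cells, against 49.0, 40.8 and 52.5 in wild type. The step from ESC to day 3 was 0.25 in the mutant (limma adjusted p = 0.28) and -0.47 in wild type (0.047), neither called. The difference of these steps was 0.72 (SE 0.29, adjusted p = 0.078). It was again 0.72 (0.037) without the 2 libraries with mature heart transcripts, short of the size limit. On day 4 the values were 14.9, 12.8 and 8.16 in mutant cells, against 16, 11.6 and 13.1 in wild type, and the groups overlapped. Day 5 gave 5.15, 4.47 and 3.54 in mutant cells, against 6.28, 3.87 and 5.09 in wild type. By day 6 the level was 3.75, 3.36 and 2.55 in mutant cells, against 4.6, 4.30 and 2.67 in wild type. From day 3 to day 6 the genotypes overlapped throughout, with log2 differences between -0.21 and 0.15 and 95% intervals that reached no further than -0.64 or 0.58. Both genotypes lost most of their Nodal between day 3 and day 5. It fell by 2.13 on the log2 scale from day 3 to day 4 in the mutant (adjusted p = 1.1e-07) and by 1.77 in wild type (8.3e-06), and by a further 1.32 (0.00023) and 1.34 (0.00054) to day 5. The day 6 means were 7.27% of the ESC mean in the mutant and 5.87% in wild type.

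Gdf3, a relative of Nodal expressed in pluripotent cells (ENSMUSG00000030117, chr6:122605403-122610087), was below wild type in every mutant library at every stage and was called lower on days 3 to 6. The ESC levels were 70.0, 61.7 and 60.0 scaled RPKM in the mutant, against 99.4, 97 and 96.2 in wild type, a log2 difference of -0.61 (SE 0.30, adjusted p = 0.10) that was not called. On day 3 they were 8.22, 8.82 and 6.91 in the mutant, against 26.4, 13.6 and 12.7 in wild type. On day 4 they were 3.25, 3.03 and 2.14 in the mutant, against 10.8, 3.96 and 5.17 in wild type. Wild-type replicate 1 lay far above its fellows on both days. Day 5 gave 0.760, 1.04 and 0.678 in the mutant, against 5.07, 1.82 and 2.37 in wild type, and day 6 gave 0.833, 1.03 and 0.698 in the mutant, against 3.21, 2.50 and 1.86 in wild type. All mutant values below all wild-type values is a pattern that 23.5%, 18.9%, 16.4% and 20.7% of all genes showed on days 3, 4, 5 and 6. The log2 differences were -1.02 (SE 0.30, adjusted p = 0.022) on day 3, -1.01 (0.018) on day 4, -1.34 (0.0021) on day 5 and -1.14 (0.0060) on day 6. Wild-type replicate 1 decided whether they passed the size limit: without it on days 3 to 6 the differences were -0.69, -0.62, -0.97 and -0.98, with adjusted p of 0.0096, 0.013, 0.00024 and 0.00017. Gdf3 was also no longer called on day 4 once mutant replicate 3 of that day was left out (-0.86, 0.086), nor on day 3 once mutant replicate 1 (-1.04, 0.054) or replicate 3 (-0.92, 0.078) of that day was left out, with no scaling (-0.97) and with quantile normalization (-0.98).

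Set against Nodal, Gdf3 was most abundant in ESCs. In ESCs the ratio of Gdf3 to Nodal RPKM was 1.33 to 1.55 in the mutant and 1.41 to 1.59 in wild type, so the genotypes overlapped. The ratio was 0.122 to 0.177 in the mutant and 0.242 to 0.539 in wild type on day 3, and 0.219 to 0.263 against 0.342 to 0.675 on day 4. It was 0.148 to 0.233 in the mutant and 0.466 to 0.808 in wild type on day 5, and 0.222 to 0.306 against 0.582 to 0.699 on day 6. The groups stood apart on all 4 of these days, and the ratios, formed after the values were seen, were not tested.

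Tdgf1, the EGF-CFC coreceptor that lets Nodal bind its receptors (ENSMUSG00000032494, chr9:110939608-110946158), was the most abundant of the 7 genes in ESCs and on day 3, and its mutant difference changed sign along the course. In ESCs it was at 145, 223 and 220.3 scaled RPKM in the mutant, against 126, 131 and 141 in wild type, with all mutant libraries above. The day 3 levels were 216, 219 and 264 in the mutant, against 198, 153 and 183 in wild type, again all above, as for 26.2% and 18.7% of all genes at the 2 stages. Neither was called, with log2 differences of 0.53 (SE 0.19, adjusted p = 0.027) and 0.39 (0.18). On day 4 the groups overlapped, at 58.3, 63.9 and 56.8 in the mutant and 62.7, 63.6 and 87.6 in wild type. On day 5 Tdgf1 was at 14.5, 12.3 and 8.87 in the mutant, against 21.4, 24.5 and 32.5 in wild type, and it was called lower (log2 -1.11, SE 0.19, adjusted p = 0.00015). With replicate 3 of day 5 left out, the Tdgf1 difference was -0.92 (0.0020) if the mutant library was dropped and -0.94 (0.0023) if the wild-type one was, both short of the size limit. Day 6 gave 6.05, 6.91 and 8.56 in the mutant, against 10.4, 14.4 and 11.9 in wild type, all below but not called (-0.73, 0.0061). The F test for dependence of the mutant difference on stage gave F = 13.5 for Tdgf1 (limma adjusted p = 9.2e-05), and 1 of the 7 genes was called in it, where 42.2% of all tested genes were at adjusted p under 0.05 alone. Foxh1 (F = 3.41, 0.056) and Cer1 (F = 3.19, 0.068) came next, and the count was 3 without mutant day 4 replicate 3 or without wild-type day 5 replicate 3, and 2 without mutant ESC replicate 1, mutant day 5 replicate 3, mutant day 6 replicate 2 or wild-type replicate 3 of day 4 or 6. Between day 4 and day 5 Tdgf1 fell by 2.31 in the mutant (7.5e-08) and by 1.44 in wild type (0.00011), and the difference of these steps was -0.87 (SE 0.27, adjusted p = 0.20). A processed copy, Tdgf1-ps1 on chromosome 16, held 2.89 to 17.2% of the summed RPKM of gene and copy, and the sources do not say how reads of the copies were divided. Replacing Tdgf1 with the sum of both, a choice made after seeing the data, changed none of its calls.

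Lefty1, a feedback inhibitor of Nodal that in the embryo is made along the midline (ENSMUSG00000038793, chr1:180935022-180938401), was lower in the mutant in ESCs and on day 4. In ESCs it was at 31.3, 32.7 and 34.2 scaled RPKM in the mutant, against 76, 65.2 and 60.1 in wild type, with a wide gap between the groups. The log2 difference was -1.02 (SE 0.42, adjusted p = 0.049). This call stood at the edge: leaving out any 1 of the 6 ESC libraries gave adjusted p between 0.066 and 0.13, and no scaling gave -0.87 (0.11). The SE rests on a spread estimated over all 10 groups, so libraries of other stages enter it. Without wild-type replicate 1 of days 3 to 6, a choice made after seeing the data, the ESC difference was again -1.02 (limma adjusted p = 0.0066). On day 3 the levels were 22.7, 20.0 and 9.75 in the mutant, against 75.7, 18.8 and 21.3 in wild type, where replicate 1 stood at the ESC level and the other libraries overlapped the mutant ones. On day 4 they were 2.46, 3.09 and 1.86 in the mutant, against 16.3, 8.08 and 8.29 in wild type. All mutant libraries lay below, and Lefty1 was called lower by -1.89 (SE 0.42, adjusted p = 0.0020). That difference was -1.57 (0.0014) without wild-type replicate 1 of days 3 to 6 and -1.73 (0.0076) without the 2 mutant libraries with mature heart transcripts. Day 5 gave 4.00, 3.27 and 1.25 in the mutant, against 7.64, 3.5 and 3.40 in wild type, which overlapped. Day 6 gave 1.44, 1.22 and 1.71 in the mutant, against 3.12, 3.71 and 2.60 in wild type, all below but not called (-0.89, adjusted p = 0.12).

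Lefty2, the inhibitor that in the embryo is made in left lateral plate mesoderm (ENSMUSG00000066652, chr1:180893108-180899107), dropped steeply between ESC and day 3 in both genotypes. It was at 106, 133 and 130.3 scaled RPKM in mutant ESCs, against 123, 123 and 121 in wild-type ESCs. On day 3 it was at 10.6, 10.5 and 9.30 in the mutant, against 10.4, 7.30 and 10.2 in wild type. The genotypes overlapped at both stages. From ESC to day 3 Lefty2 fell by 3.53 on the log2 scale in the mutant (adjusted p = 7.8e-10) and by 3.66 in wild type (4.9e-10), the deepest drop of the 7 genes at that step. The difference between these drops was 0.13 (SE 0.46, adjusted p = 0.88). Day 4 gave 3.68, 3.61 and 1.18 in the mutant, against 3.43, 3.13 and 5.64 in wild type. Day 5 gave 3.71, 2.51 and 0.969 in the mutant, against 2.33, 1.27 and 1.68 in wild type. The low mutant values of both days belong to the replicates 3 that carried mature heart transcripts, and the part of those transcripts in the result was not tested. Without those 2 libraries the day 4 and day 5 differences were -0.10 (adjusted p = 0.83) and 0.68 (0.038), against -0.54 (0.24) and 0.26 (0.66) with them. On day 6 the levels were 1.18, 1.09 and 1.02 in the mutant, against 0.866, 1.63 and 1.99 in wild type.

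The balance of the 2 Lefty genes turned over between ESCs and day 3. The ratio of Lefty1 to Lefty2 RPKM was 0.246 to 0.295 in mutant ESCs and 0.498 to 0.620 in wild-type ESCs, so Lefty2 was the more abundant in every ESC library. On day 3 the ratio was 1.05 to 2.15 in the mutant and 2.08 to 7.30 in wild type, and Lefty1 was then the more abundant in every library. Day 4 gave ratios of 0.670 to 1.57 in the mutant and 1.47 to 4.76 in wild type, day 5 gave 1.08 to 1.30 in the mutant and 2.02 to 3.28 in wild type, and day 6 gave 1.12 to 1.68 in the mutant and 1.31 to 3.60 in wild type. The genotypes stood apart in ESCs and on day 5 and overlapped on days 3, 4 and 6. Lefty1 and Lefty2 are close copies in sequence, how reads shared between them were counted is not given in the sources used here, and the ratio was not tested.

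**Figure D2:**
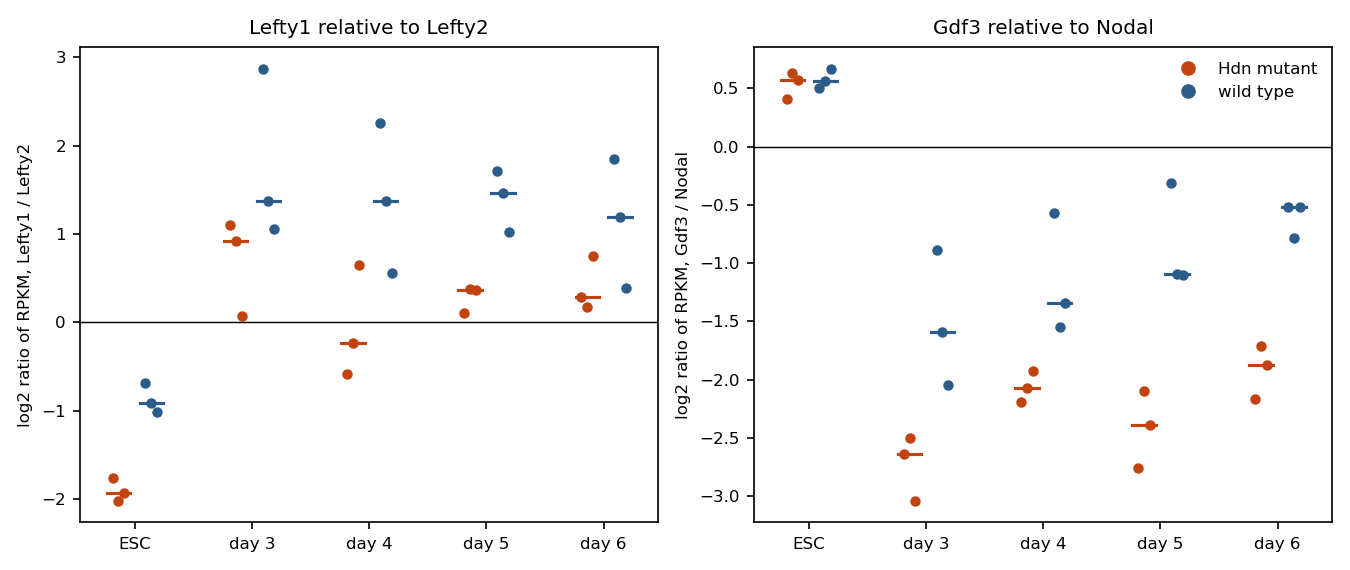
Log2 ratio of Lefty1 to Lefty2 RPKM (left) and of Gdf3 to Nodal RPKM (right) at the 5 stages; points are libraries, short bars are group medians, and the Hdn mutant stands left of the wild type. The Lefty1 to Lefty2 ratio is at most 0.620 in every ESC library and above 1 in every library of day 3, and the Gdf3 to Nodal ratio is lower in all mutant than in all wild-type libraries on days 3 to 6.

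Cer1, a secreted protein that binds Nodal and BMP ligands (ENSMUSG00000038192, chr4:82881751-82885151), came on during differentiation and peaked on day 5. In ESCs it had 1, 0 and 0 reads in the mutant libraries and 0 reads in every wild-type library. On day 3 it had 48, 53 and 83 reads in the mutant, against 4, 2 and 14 in wild type, or 0.471, 0.685 and 0.883 scaled RPKM against 0.0439, 0.0195 and 0.120. The mutant to wild-type ratio of read rates was 10.4, with a 95% interval of 6.57 to 17.5 that covers counting error only. All mutant libraries lay above, and the log2 difference on the scale with 0.5 added was 1.06 (SE 0.43, adjusted p = 0.098), which was not called. That scale understates the change of a gene at this level: with 0.1 added the difference was 2.29 (adjusted p = 0.0066). On day 4 Cer1 was at 6.82, 7.82 and 1.17 in the mutant, against 1.33, 1.05 and 1.66 in wild type. Replicates 1 and 2 of the mutant stood well above wild type and replicate 3 within it. Cer1 was called higher on day 4 (log2 1.35, SE 0.43, adjusted p = 0.026). It was not called once replicate 1 (1.03, 0.11) or 2 (0.93, 0.14) of the mutant was left out, or replicate 1 (1.35, 0.057) or 2 (1.23, 0.094) of wild type. Nor was it called on day 4 with 0.1 added (1.53, 0.056) or with no filter (1.35, 0.063). On day 5 it was at 11.9, 12.2 and 5.83 in the mutant, against 3.74, 3.74 and 7.52 in wild type, its highest level in both genotypes (0.93, 0.14). On day 6 it was at 0.230, 0.161 and 0.655 in the mutant, against 0.633, 1.44 and 0.162 in wild type, having fallen by 3.60 in the mutant (7.8e-06) and by 2.21 in wild type (0.011).

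The low mutant values of Cer1 on days 4 and 5 belong to the libraries with mature heart transcripts. Without those 2 libraries Cer1 was called higher on day 3 (1.06, adjusted p = 0.0096), day 4 (2.09, 6.2e-05) and day 5 (1.26, 0.0054), and the F test for stage dependence gave 11.8 (0.00022). No library of day 3 was left out, and the day 3 difference was 1.06 in both fits. Its limma adjusted p was 0.098 with all libraries. The spread is estimated over all 10 groups, so libraries of days 4 and 5 enter it. Cer1 is also made by visceral and definitive endoderm, and marker lists of these and of node cells, which hold another source of antagonists, were followed beside it. The summed level of 5 definitive endoderm genes on day 4 was 20.2, 24.1 and 29.3 in the mutant, in replicate order, against 5.53, 13.1 and 21.4 in wild type. It was thus highest in mutant replicate 3, where Cer1 was low. Cxcr4 averaged 12.3 in the mutant and 3.21 in wild type, and Sox17 2.72 and 2.76. Foxa2 averaged 7.53 and 5.89, Hhex 1.77 and 1.33, and Foxa1 0.241 and 0.146. That of 5 node and notochord genes was 120, 96.7 and 25.1 in the mutant, in replicate order, against 18.5, 21.4 and 33.3 in wild type. Nog made up most of this node sum on day 4, with means of 58.2 in the mutant and 14.02 in wild type. Foxj1 averaged 20.05 in the mutant and 9.11 in wild type, Noto 1.12 and 0.358, and Shh 0.815 and 0.227. Chrd ran the other way, with means of 0.483 in the mutant and 0.71 in wild type. The summed level of 8 visceral endoderm genes was 2.85 to 4.66 in the mutant and 11.4 to 16.1 in wild type on day 3. On day 4 it was 20.0, 27.1 and 34.4 in the mutant, in replicate order, against 19.3 to 23.8 in wild type. Day 5 gave 42.5 to 47.0 in the mutant and 19.9 to 25.7 in wild type. The defining markers Afp, Apob and Cubn of this list stayed below 0.1 in every library of days 3 to 5. Dkk1, a Wnt inhibitor, made up nearly all of that sum, with means of 26.8 in the mutant and 18.9 in wild type on day 4 and 42.9 in the mutant and 20.9 in wild type on day 5. Other genes of the list ran the other way on day 4: Ttr averaged 0.0829 in the mutant and 0.443 in wild type, Apoa1 0.0305 in the mutant and 0.516 in wild type, and Amn 0.180 in the mutant and 0.812 in wild type. The part of any of these cells in the Cer1 result was not tested.

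Foxh1, the transcription factor that binds DNA with the Smad proteins (ENSMUSG00000033837, chr15:76667829-76671614), kept a high level longer than the ligands and was called at no stage between the genotypes. It was at 79.9, 51.5 and 53.1 scaled RPKM in mutant ESCs, against 83.8, 86.7 and 72.0 in wild-type ESCs. On day 3 it was at 105, 93.3 and 105 in the mutant, against 90.2, 87.2 and 119.6 in wild type. Both genotypes thus held Foxh1 on day 3 at or above their ESC levels. Day 4 gave 103, 108 and 57.3 in the mutant, against 62.5, 59.7 and 88.8 in wild type. Day 5 gave 86.2, 102 and 76.5 in the mutant, against 54.7, 33.9 and 63.6 in wild type. All mutant libraries lay above wild type on day 5, as for 13.8% of all genes, with a log2 difference of 0.83 (SE 0.26, adjusted p = 0.023) that was short of the size limit and was 1.02 (0.015) without wild-type day 5 replicate 3. On day 6 the levels were 45.9, 25.5 and 47.4 in the mutant, against 22.2, 28.2 and 28.8 in wild type. Foxh1 fell from day 5 to day 6 by 1.19 in the mutant (adjusted p = 0.0073). The wild-type step was -0.89 (0.11), and the difference of the steps was -0.30 (SE 0.37, adjusted p = 1.0).

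**Figure D3:**
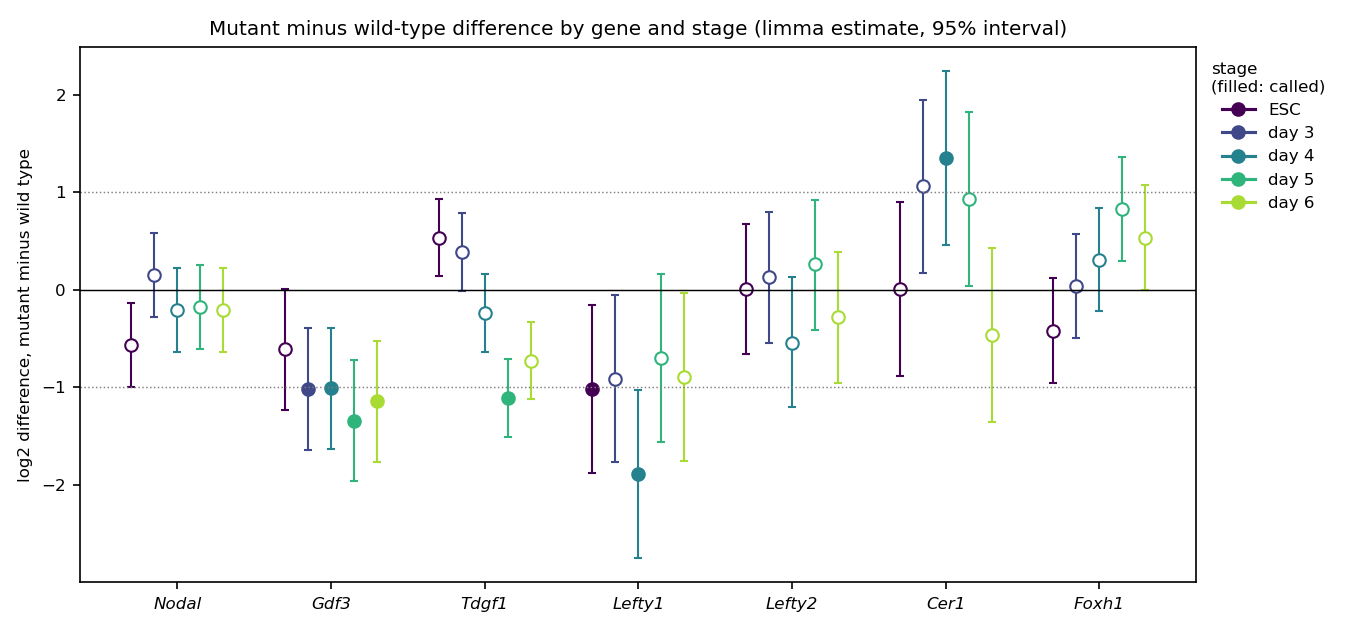
Log2 difference between mutant and wild type for the 7 genes at the 5 stages, from ESC (dark) to day 6 (light); points are limma estimates on log2(scaled RPKM + 0.5), bars their 95% intervals, filled points are called, and dotted lines mark the size limit of 1. Gdf3 and Lefty1 lie below 0 at every stage, Tdgf1 passes from 0.53 to -1.11 between ESC and day 5, and Cer1 reaches 1.35 on day 4.

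Along the course of differentiation, most of the 7 genes fell between day 3 and day 4, and in both genotypes. From ESC to day 3, Gdf3 and Lefty2 fell and Cer1 rose in the mutant (2 lower and 1 higher, beside 21.6% and 18.2% of all genes), and Gdf3, Lefty1 and Lefty2 fell in wild type (3 lower and 0 higher, beside 20.3% and 17.4%). From day 3 to day 4, Nodal, Gdf3, Tdgf1, Lefty1 and Lefty2 fell and Cer1 rose in the mutant (5 lower and 1 higher, beside 3.54% and 4.83%), and the same genes were called in the same directions in wild type (beside 0.465% and 1.88%). From day 4 to day 5, Nodal, Gdf3 and Tdgf1 fell in the mutant (3 lower and 0 higher, beside 1.25% and 1.42%), and Nodal and Tdgf1 fell and Cer1 rose in wild type (2 lower and 1 higher, beside 0.416% and 1.1%). From day 5 to day 6, Cer1 and Foxh1 fell in the mutant (2 lower and 0 higher, beside 0.232% and 1.23%), and Tdgf1 and Cer1 fell in wild type (2 lower and 0 higher, beside 0.0493% and 0.169%). The counts of called genes within wild type leaned on single libraries. For day 4 against day 3, 2 genes were called without wild-type day 3 replicate 1 and 3 without replicate 2 of day 4. For day 6 against day 5, 0 were called without wild-type day 5 replicate 3 and 1 without replicate 1 or 3 of day 6. With wild-type day 5 replicate 1 left out, 6 genes were called between day 4 and day 5, since Gdf3 (-1.35, 0.0063), Lefty1 (-1.46, 0.046) and Lefty2 (-1.18, 0.045) then fell as well. Again for day 5 against day 4 Cer1 was not called when any 1 wild-type library of day 4, or replicate 2 or 3 of day 5, was left out. In the mutant the Cer1 rise to day 3 was not called with replicate 3 of day 3 left out (1.09, 0.052), nor the Foxh1 fall to day 6 with replicate 2 of day 6 (-0.90, 0.10) or of day 5 (-1.08, 0.055) left out. Of the 28 differences between a mutant step and the same wild-type step, 0 passed in limma, where 2.68% of all gene and step pairs did, and 4 had an unadjusted p under 0.05: Nodal from ESC to day 3 (0.72), Tdgf1 to day 4 (-0.63) and to day 5 (-0.87), and Cer1 from day 5 to day 6 (-1.39).

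The 10 group means of each gene could be put in order, and neighbours in that order were often not separated. The range of a group overlapped that of the next group down for 9 of 9 neighbouring pairs of Foxh1, 7 of 9 of Lefty2, 6 of 9 of Nodal, Lefty1 and Cer1, 5 of 9 of Gdf3 and 4 of 9 of Tdgf1. Foxh1 ran from 101 ± 6.50 in mutant cells of day 3 down to 26.4 ± 3.68 in wild-type cells of day 6 (SD, n = 3) with no gap between neighbours. Nodal was highest in wild-type ESCs (65.6 ± 4.91), stood apart there from mutant cells of day 3 (52.6 ± 3.73), and then broke between mutant ESCs (44.3 ± 7.26) and wild-type cells of day 4 (13.6 ± 2.23). Cer1 was highest in mutant cells of day 5 (9.97 ± 3.59), and its group means then ran through mutant day 4 (5.27 ± 3.59) and wild-type day 5 (5.00 ± 2.18) without a gap.

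Over the 30 libraries, as a description, log2 levels of Nodal and Tdgf1 correlated with r = 0.94, those of Gdf3 with Lefty1 and with Lefty2 with 0.94 each, and those of Cer1 and Nodal with -0.54. These values mostly follow the shared course of the stages. After the group means were taken out, Gdf3 and Lefty1 still varied together between replicates (r = 0.76). So did Nodal and Gdf3 (0.63) and Cer1 and Foxh1 (0.61), whereas Nodal and Tdgf1 (-0.05) and Gdf3 and Tdgf1 (-0.18) did not. Cer1 and Nodal changed sign to 0.58, and Cer1 and Lefty2 went from -0.56 to 0.57. Wild-type replicate 1 was often highest in both Gdf3 and Lefty1. The mutant libraries left out above for mature heart transcripts were lowest in Cer1 and Foxh1 within their groups. The part of these libraries in the correlations was not tested. By Pearson correlation over the same 30 libraries, the genes closest to Nodal were Pou5f1 (0.972), Olig2 (0.967) and Bcat2 (0.962), and Pou5f1 was also among those closest to Tdgf1 (0.955), after Plekhf2 (0.960) and before Necab3 (0.949). Gls2 and Abcc4 were close both to Gdf3 (0.984 and 0.979, followed by Syt9 with 0.978) and to Lefty1 (0.953 and 0.950, after Pianp with 0.967). Lefty2 was closest to Tesk2 (0.986), Rrp1b (0.985) and Bid (0.984) and Cer1 to Samd3 (0.932), Foxd4 (0.852) and Tal2 (0.844), and Slc30a3 (0.860) and Slc7a7 (0.859) were among those closest to Foxh1.

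Markers of naive pluripotency, as a sum, were below wild type in the mutant on the days on which Gdf3 was called lower. In ESCs the sums overlapped, with mutant replicates 2 and 3 below all wild-type libraries and mutant replicate 1 among them. There the summed level of 8 naive genes (Zfp42, Klf2, Klf4, Esrrb, Tbx3, Nr0b1, Tfcp2l1 and Prdm14) was 1410, 778 and 773 scaled RPKM in the mutant. The wild-type ESC sums were 1260, 1430 and 934, likewise in replicate order. From day 3 on, the summed level had no such overlap. It was 12.3 to 14.9 in the mutant and 99.7 to 141 in wild type on day 3, 18.7 to 26.5 against 84.2 to 162 on day 4, 25.9 to 36.3 against 52.2 to 140 on day 5, and 35.7 to 54.0 against 85.0 to 133 on day 6. The genotypes stood apart on each of these days, and no gene of the list was below 0.1 in all libraries of a group. Klf2 made up most of the wild-type sum, with means of 6.96 in the mutant and 93.8 in wild type on day 3. Esrrb averaged 0.565 in the mutant and 4.46 in wild type on that day, and Zfp42 3.07 in the mutant and 15.1 in wild type. Tbx3 ran the other way from day 4 on, with means of 6.83, 9.17 and 8.07 on days 4, 5 and 6 in the mutant, against 4.21, 4.2 and 3.89 in wild type. In ESCs, where Lefty1 was called lower, the genes of the list went both ways. Zfp42, Tbx3 and Tfcp2l1 averaged 279, 29.2 and 76.2 in the mutant, against 127, 26.4 and 63.6 in wild type. Klf2, Esrrb and Nr0b1 averaged 361, 120 and 44.2 in the mutant, against 668, 166 and 68.9 in wild type. Klf4 and Prdm14 had lower mutant means too, at 63.2 and 15.8 against 66.9 and 18.9. The summed level of Pou5f1, Sox2 and Nanog ran the other way on day 3, at 339 to 365 in the mutant and 221 to 266 in wild type, and overlapped on days 4 to 6. Wild-type replicate 1, which carried the highest Gdf3 on days 3 to 6 and the highest Lefty1 on days 3 to 5, also had the highest naive sum of its group on days 3, 4 and 5. The part of residual naive cells in the Gdf3 and Lefty1 differences was not tested.

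**Figure D4:**
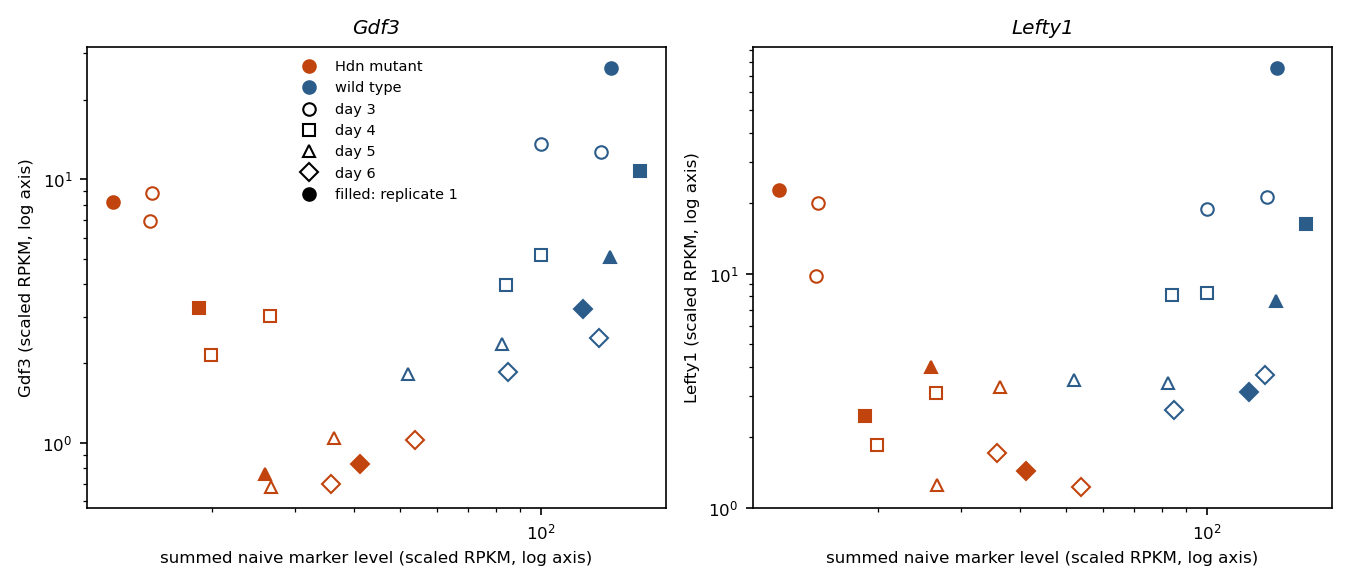
Gdf3 (left) and Lefty1 (right) against the summed level of 8 naive pluripotency genes in the 24 differentiating libraries, all in scaled RPKM on log axes; colour gives the genotype, shape the day, and filled symbols are replicate 1. Mutant libraries lie between 12.3 and 54.0 on the marker axis and wild-type libraries between 52.2 and 162, and within a day the wild-type libraries have the higher Gdf3.

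The other genes of the pathway were followed in 6 lists of 51 genes, of which 42 passed the filter. Those below it were Gdf1, Inhba, Acvr1c, Noto, Rfx3, Pkd1l1, Dnah11, Bicc1 and Ihh, and Gdf1, a ligand whose transcript overlaps another gene, was listed at 0 in every library. Relative to wild type, 1 of them was called higher and 2 lower in mutant ESCs. Day 3 gave 2 higher and 0 lower, day 4 gave 3 higher and 1 lower, day 5 gave 1 each way, and day 6 gave 2 higher and 1 lower, beside the shares of all genes given above. The median log2 difference of the 42 genes was -0.14, 0.12, 0.18, 0.27 and 0.15 from ESC to day 6.

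Among ligands and the proteases that process them, 2 of 5 tested genes were lower in mutant ESCs. Inhbb, a subunit of activin B, was at 1.10, 0.193 and 0.170 scaled RPKM in the mutant, against 3.32, 3.78 and 2.31 in wild type (log2 -1.98, SE 0.22, adjusted p = 1.2e-07). Furin, a protease that cleaves the Nodal precursor, was at 4.48, 1.66 and 1.79 in the mutant, against 9.07, 9.21 and 6.39 in wild type (-1.57, 4.2e-06). Mutant replicate 1 stood nearer to wild type in both genes, as it did in Nodal and Tdgf1. Pcsk5, another such protease, was higher in the mutant on day 6 with a mean of 1.86, against 0.397 in wild type (1.41, 9.7e-08).

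The coreceptor and receptor list had 4 tested genes, of which Cfc1 alone was called. Cfc1, or Cryptic, is the EGF-CFC coreceptor needed for left-right asymmetry, and it came on as Tdgf1 went down. It was at 1.84, 1.30 and 2.21 in the mutant on day 3, against 0.202, 0.0814 and 0.402 in wild type (log2 1.65, SE 0.50, adjusted p = 0.026). Leaving out replicate 1 or 3 of the mutant, or replicate 1 or 2 of wild type, gave adjusted p from 0.071 to 0.095 for Cfc1 on that day. On day 4 Cfc1 was at 21.2, 38.7 and 48.5 in the mutant, against 1.56, 5.66 and 11.6 in wild type (2.69, 0.00041). The mutant mean of Cfc1 on day 5 was 58.0, against 26.1 in wild type, and that of day 6 was 34.0, against 16.3 in wild type, neither of them called. Unlike Cer1, Cfc1 was not low in mutant day 4 replicate 3.

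Of 14 transducers and cofactors, Trim33 alone was called, and in ESCs alone. Trim33, a ubiquitin ligase that binds Smad proteins, was at 4.89, 5.08 and 4.49 in the mutant, against 1.31, 1.67 and 1.80 in wild type (1.35, adjusted p = 5.5e-08). The Smad transducers had smaller differences in ESCs: Smad2 averaged 10.9 in the mutant and 7.41 in wild type (0.53, 0.00088), Smad3 5.58 and 8.35 (-0.55, 0.035) and Smad4 15.5 and 13.4 (0.20, 0.18), none of them called.

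Of the 4 extracellular antagonists, 3 were called at 1 or more of the 5 stages, as were 22.5% of all tested genes. Fstl3, which binds activins, was lower in the mutant on day 4 (means of 1.61 in the mutant and 4.19 in wild type; -1.39, adjusted p = 0.015), day 5 (2.27 and 7.85; -1.57, 0.0062) and day 6 (3.13 and 18.3; -2.32, 0.00011). The day 4 difference of Fstl3 was -0.71 (0.16) with mutant replicate 3 left out, and its adjusted p was 0.066 or 0.052 with wild-type replicate 2 or 3 left out. Fst, another activin-binding protein, was at 6.04, 8.62 and 15.7 in the mutant on day 3, against 0.566, 3.62 and 5.29 in wild type (1.75, 0.040). Fst was not called with wild-type replicate 1 left out (log2 1.0, adjusted p = 0.28), or with mutant replicate 2 (1.81, 0.087) or 3 (1.39, 0.16) left out. Bambi, a receptor-like inhibitor, was at 5.82, 8.75 and 17.8 in the mutant on day 4, against 5.92, 3.58 and 3.55 in wild type (1.11, 0.0030), and fell short of the size limit with mutant replicate 3 left out (0.69, 0.030).

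Targets of the pathway were rarely called. On day 3 the 9 target genes had a median log2 difference of 0.87, beside -0.01 for all genes, and 0 of them were called. T averaged 123 in the mutant and 65.7 in wild type (1.40, adjusted p = 0.20), Eomes 7.96 and 3.77 (1.12, 0.086) and Gsc 4.90 and 1.84 (1.13, 0.083). Lhx1, a transcription factor of the streak and node, was higher on day 4 at 4.56, 4.17 and 3.29 in the mutant, against 0.182, 1.96 and 2.86 in wild type (1.33, 0.017), and the difference was 0.64 (0.16) without wild-type day 4 replicate 1. Of the left-right genes of node and cilia, 6 of 12 were tested and Shh, a midline signal, was called higher on day 5 at 3.65, 5.34 and 0.783 in the mutant, against 1.06, 0.259 and 0.587 in wild type (1.53, 0.0092). Shh was not called with mutant replicate 1 (1.33, 0.055) or 2 (1.09, 0.089) or wild-type replicate 2 (1.27, 0.069) left out.

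**Figure D5:**
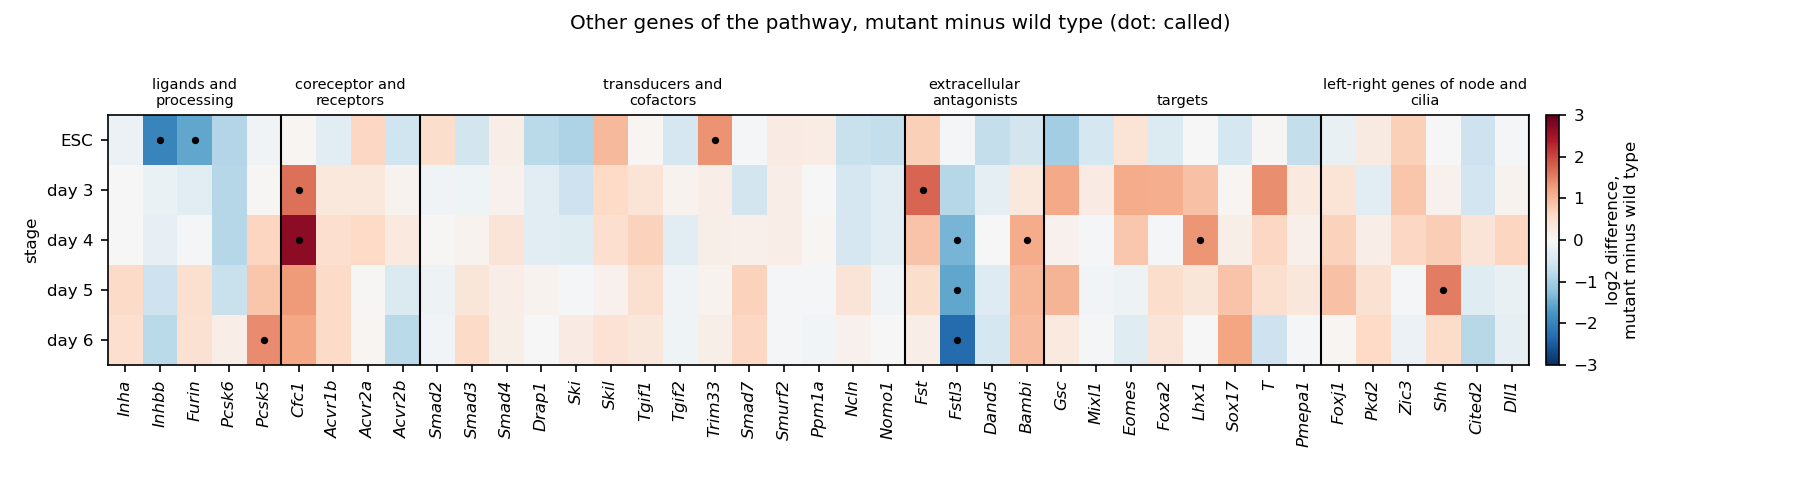
Log2 difference between mutant and wild type for tested pathway genes (columns, grouped by list) at the 5 stages (rows); red is higher in the mutant, blue lower, and dots mark called genes. The 3 dots of Fstl3 (-1.39, -1.57 and -2.32) and the 2 of Cfc1 (1.65 and 2.69) are the only repeated calls.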

How the data were processed

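Total RNA of 30 libraries, 3 in each of 10 groups of genotype and stage, was sequenced by the authors from ScriptSeq v2 libraries, per the labels' protocols. The deposited table holds RPKM, read counts that the authors normalised to gene length and library size. Per the submitters' processing notes, STAR, DESeq2 and mm10 were used; their versions, the annotation and how reads were counted are not stated. The 3 chromosome conformation samples and the E9.5 heart library were not analysed here.

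The deposited RPKM were divided by a median-ratio size factor from 11618 genes (0.888 to 1.106). Genes at 1 or more in at least 3 libraries were kept, and log2(scaled RPKM + 0.5) was fitted with limma 3.58.1 in R 4.3.3, with a mean-variance trend and 1 mean per group over all 30 libraries. Fold changes are on that scale and understate the change of low genes. Reads per gene and library totals were recovered from the step that 1 read makes in low RPKM values, within 0.001 of a whole number, and were used for Cer1 and Hdn. The depth of 43.3 to 68.4 M reads leaves little counting error except for these and for other genes near 0. Among the latter are Apoa1 and Ttr in mutant cells of day 4, and their reads were not recovered. The fit was tested on simulated data. Symbols were found for 52403 of the 52636 IDs.

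The 7 genes and all lists were chosen with earlier results of these data known. Besides the 7, the text names the called members of the pathway lists, marker genes and the 3 genes most correlated with each; Smad2, Smad3, Smad4, T, Eomes and Gsc were named after their values were seen. Results for some genes that this rule covers are not reported here, although the counts include them. Alternatives covered scaling, filter, pseudocount, trend, the replicate block, the libraries fitted and leaving out each library; the sum of Tdgf1 with its copy, the fits without wild-type replicate 1 of days 3 to 6 and those without the libraries with mature heart transcripts are named where used, and the first 2 were chosen after seeing the data. Replicate numbers were not used to pair the libraries, since not every pair of same-numbered libraries correlated above 0.1. The main fit thus treated all libraries as independent. The replicate block shared its terms between the genotypes, so a culture followed over several days within a genotype was not modelled.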

Additional observations from a re-analysis of the deposited data

Results flagged for a closer look

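The mutant difference of Tdgf1 depended on the stage, with F = 13.5 in the limma F test (adjusted p = 9.2e-05), positive in ESCs and on day 3 and negative from day 4. Of the listed pathway genes, 5 changed differently in the 2 genotypes between ESC and day 3, by the limma test of the difference between the steps. That is 11.9% of the 42 tested pathway genes, near the 9.52% of all tested genes called in the same test. The mutant step exceeded the wild-type step by 1.78 on the log2 scale for Inhbb (adjusted p = 0.00021), by 1.23 for Furin (0.0061), by 2.17 for Gsc (0.013) and by 1.01 for Pmepa1 (0.037), and for Trim33 the difference was -1.16 (0.00019). Inhbb, Furin and Trim33 are the genes that were called between mutant and wild-type ESCs.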

How the results depend on the processing

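No called value among the results changed sign under any alternative run. The number of the 7 genes called between mutant and wild type moved as follows. In ESCs (1) it was 3 with adjusted p alone and 0 with no filter, no scaling, pseudocount 0.1, quantile normalization or the same sum of RPKM. On day 3 (1) it was 0 with no filter, no scaling, pseudocount 1, quantile normalization or the same sum, and 2 with pseudocount 0.1, with only the libraries compared, or without the 2 libraries with mature heart transcripts. On day 4 (3) it was 1 with only the libraries compared, and 2 with no filter, pseudocount 0.1, pseudocount 1 or without the 2 heart libraries. On day 5 (2) it was 3 with adjusted p alone. On day 6 (1) it was 2 with adjusted p alone and 0 with pseudocount 1. The F test (1 called) gave 2 with pseudocount 0.1 and 3 without the 2 heart libraries; fitting the groups compared is here the same as all groups. Differences between steps (0) gave 1 with pseudocount 0.1 and, where the fit held just the groups compared, also 1. Without wild-type replicate 1 of days 3 to 6, chosen after seeing the data, the counts were 0, 1, 1 and 0 on those days. Adjusted p alone gave 5 for mutant day 3 against ESC; fitting only the libraries compared gave 1 for mutant day 6 against day 5, and 0 for wild-type day 5 against day 4 and day 6 against day 5. The causes were not tested.

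Leaving out 1 library at a time gave 0 to 0 in ESCs, 0 to 1 on day 3, 1 to 3 on day 4, 1 to 2 on day 5, 0 to 1 on day 6, 1 to 3 in the F test and 0 to 1 for step differences. For the 4 successive steps it gave 2 to 4, 6 to 6, 3 to 4 and 1 to 3 in the mutant, and 2 to 3, 2 to 6, 2 to 6 and 0 to 3 in wild type. With the replicate block the counts were 1, 1, 3, 2 and 1 from ESC to day 6, as without it. Same-numbered libraries of different groups had a median correlation of 0.0612 (-0.566 to 0.574), over 0.1 in 60 of 135 pairs, and 18 of 30 libraries correlated best with their own number. Scaling to the same sum moved the median of all genes by -0.30 for mutant and -0.20 for wild-type day 3 against ESC.

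The 3 libraries a group limit precision more than depth does, except for Cer1 in ESCs and on wild-type day 3. The unstated number of clones limits every mutant comparison, wild-type replicate 1 those of days 3 to 6, and the 2 libraries with mature heart transcripts those of days 4 and 5. Day 6 has this limit too, since all its mutant libraries carried such transcripts, at a summed level of 191 to 543. They were in every fit except where 1 was left out at a time, and their part in the day 6 results was not tested.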
